A study of Mus musculus with 11 samples.

Results

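The mitochondrial respiratory chain and ATP synthase are built from protein complexes in the inner membrane, and the genes described here are the nuclear genes for complexes II to V and for cytochrome c. They were chosen by symbol as protein-coding genes of the succinate dehydrogenase subunits, the Uqcr genes and Cyc1, cytochrome c, the Cox4 to Cox8 subunits and the Atp5 genes, with the isoform genes Cox7a1 and Cox8b left out. This gave 48 genes with 47 symbols, of 52282 genes listed in the files: 4 of complex II, 9 of complex III, cytochrome c, 16 of complex IV and 18 of complex V, on 19 chromosomes. The symbol Atp5o names 2 overlapping genes in the annotation, and Atp5s, which carries the prefix, is known as an assembly-related factor rather than a subunit.

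The data are RNA sequencing of inguinal white adipose tissue (fat from under the skin of the groin) of C57BL6/J mice that were 16 weeks old. Adipocyte-specific knockout mice (KO) carried floxed Raptor and a Cre recombinase driven by the adiponectin promoter, which is active in adipocytes. Raptor, the scaffold of the kinase complex mTORC1, was thus targeted in adipocytes, while other cells of the depot keep it. Their wild-type littermates (WT) carried floxed Raptor without Cre. From 8 weeks of age all animals ate a high-fat diet for 8 weeks, and the treated ones also received rosiglitazone, an agonist of the nuclear receptor PPARγ, at 30 mg/kg/day. The 4 groups were KO with rosiglitazone (3 libraries), KO on diet alone (2 libraries), WT with rosiglitazone (3 libraries) and WT on diet alone (3 libraries). Every group, the controls included, was on the high-fat diet, and no lean group was analysed here.

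The titles of all 6 WT libraries name the opposite treatment from their treatment entries. The entries were used. Grouped by the titles, rosiglitazone in WT would change sign and both comparisons of KO with WT would take other WT libraries. Libraries held 13035346 to 40925952 assigned reads. Whole-gene Rptor, which other cells of the depot also transcribe, was at 82.4 to 91.7 CPM (reads scaled to a common library total) in KO with rosiglitazone and 110.5 to 126 CPM in WT with rosiglitazone. On diet alone it was at 56.5 and 69.6 CPM in KO and 73.9 to 92.01 CPM in WT. None of 22 mature adipocyte markers was at 0 reads in any library. Nothing in the labels says how many animals each library holds, so the p-values measure only the spread between these libraries.

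Complex II (succinate dehydrogenase) passes electrons from succinate to ubiquinone, complex III (the cytochrome bc1 complex) passes them on to cytochrome c, and complex IV (cytochrome c oxidase) hands them to oxygen. Complex V (ATP synthase) uses the proton gradient that complexes III and IV help to build. White adipocytes hold few mitochondria compared with brown ones, and PPARγ agonists are known to raise mitochondrial genes in white fat. Many nuclear genes of the chain are known targets of the factors NRF1, the ETS factor GABP and the oestrogen-related receptors.

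RefSeq promoter windows of the GRCm38.p6 build, the build of the files, were found for 35 of the 47 symbols. Each window runs from 250 bases before to 50 bases after the start. Shown here are windows of 4 genes with a role in the results below, of complex II, III, IV and V, and of the 3 genes for the c subunit of ATP synthase, of which only Atp5g3 passed a test. They are given 5′ to 3′ on the gene's strand. Capitals mark matches to the letters GCGCNTGCG on either strand, an NRF1 motif, and overlapping matches run together.
Sdha (chr13:74350191-74350490, minus strand): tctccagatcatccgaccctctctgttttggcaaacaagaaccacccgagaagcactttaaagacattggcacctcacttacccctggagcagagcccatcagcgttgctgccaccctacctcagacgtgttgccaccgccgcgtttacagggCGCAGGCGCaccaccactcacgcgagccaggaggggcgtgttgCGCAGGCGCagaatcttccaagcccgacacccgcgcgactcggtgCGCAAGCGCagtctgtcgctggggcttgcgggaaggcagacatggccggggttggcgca
Uqcrc1 (chr9:108936398-108936697, plus strand): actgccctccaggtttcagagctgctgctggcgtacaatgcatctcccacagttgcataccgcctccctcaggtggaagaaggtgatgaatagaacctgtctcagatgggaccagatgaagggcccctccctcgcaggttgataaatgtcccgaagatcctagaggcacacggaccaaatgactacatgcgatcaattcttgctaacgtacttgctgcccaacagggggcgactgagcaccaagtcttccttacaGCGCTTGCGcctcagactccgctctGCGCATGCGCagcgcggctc
Cox5b (chr1:36691237-36691536, plus strand): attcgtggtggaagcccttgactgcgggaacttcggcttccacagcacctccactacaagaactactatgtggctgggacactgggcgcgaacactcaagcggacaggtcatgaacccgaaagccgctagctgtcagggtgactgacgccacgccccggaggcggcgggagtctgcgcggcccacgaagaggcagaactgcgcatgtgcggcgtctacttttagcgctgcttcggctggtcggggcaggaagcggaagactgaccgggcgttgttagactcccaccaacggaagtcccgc
Atp5o (chr16:91931581-91931880, minus strand): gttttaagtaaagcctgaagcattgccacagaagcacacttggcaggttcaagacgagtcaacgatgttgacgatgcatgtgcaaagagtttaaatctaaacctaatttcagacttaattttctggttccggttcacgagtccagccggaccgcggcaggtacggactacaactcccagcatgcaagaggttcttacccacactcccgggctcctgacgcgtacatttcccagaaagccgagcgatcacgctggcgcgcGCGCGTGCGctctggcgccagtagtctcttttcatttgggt
Atp5g1 (chr11:96075582-96075881, minus strand): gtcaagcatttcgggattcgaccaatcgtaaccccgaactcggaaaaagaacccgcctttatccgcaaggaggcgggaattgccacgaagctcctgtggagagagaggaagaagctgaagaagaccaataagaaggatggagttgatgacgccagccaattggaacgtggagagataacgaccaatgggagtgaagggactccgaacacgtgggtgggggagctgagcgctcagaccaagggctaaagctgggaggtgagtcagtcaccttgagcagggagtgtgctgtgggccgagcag
Atp5g2 (chr15:102670998-102671297, minus strand): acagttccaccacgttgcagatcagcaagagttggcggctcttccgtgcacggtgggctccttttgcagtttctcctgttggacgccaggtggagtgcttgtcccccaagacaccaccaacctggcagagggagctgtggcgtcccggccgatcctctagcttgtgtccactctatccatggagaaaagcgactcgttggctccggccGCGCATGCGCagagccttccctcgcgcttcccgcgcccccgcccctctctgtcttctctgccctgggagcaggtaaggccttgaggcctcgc
Atp5g3 (chr2:73911277-73911576, minus strand): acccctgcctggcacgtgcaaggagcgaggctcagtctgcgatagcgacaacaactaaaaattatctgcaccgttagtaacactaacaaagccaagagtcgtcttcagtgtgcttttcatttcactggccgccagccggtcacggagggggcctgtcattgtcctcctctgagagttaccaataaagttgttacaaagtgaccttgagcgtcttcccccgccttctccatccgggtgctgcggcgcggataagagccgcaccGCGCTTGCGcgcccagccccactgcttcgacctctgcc

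The NRF1 letters were present in the windows of 15 of the 35 member genes (42.9%), against 7.12% of 27025 genes with a window. The windows of members were richer in CpG, with a median of 19 CpG against 7 over all genes. Among windows with at least 10 CpG the letters were present for 15 of 34 members (44.1%), against 15.1% of 12388 genes. For the other motifs searched on both strands, the ETS letters CCGGAAGT were present for 4 members (11.4%, against 4.31% of all genes) and the letters AAGGTCA of oestrogen-related receptors for 5 (14.3%, against 5.38%). ATGGCGG, a YY1 motif, was present for 2 members (5.71%, against 4.69%), CCAAT for 20 (57.1%, against 41.1%) and the GC box GGGCGG for 15 (42.9%, against 38.2%). Uqcrc1 and Sdha each held 3 NRF1 matches, Atp5g2 held 2 overlapping ones, Atp5o and Atp5g3 held 1 each, and none lay in the windows of Cox5b and Atp5g1. A match describes letters and is not a bound site.

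Across the chain the level of these genes was highest in WT with rosiglitazone. Summed over the 48 genes, they took 2911, 3488 and 2501 CPM in KO with rosiglitazone and 3589 and 1794 CPM in KO on diet alone. WT libraries held 6643, 9082 and 6718 CPM with rosiglitazone and 3535, 2429 and 1826 CPM on diet alone. For 39 of the 46 genes with enough reads to test, every WT library with rosiglitazone lay above every one of the 8 other libraries, which was so for 8.54% of all tested genes. The 7 that did not are Atp5g1, Atp5g2, Atp5mpl, Cox4i2, Cox6a2, Cox7a2l and the second Atp5o gene. Cox7b2 and Cox8c, isoform genes known from testis, were not tested, and Cox8c had 0 reads in every library.

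**Figure D1:**
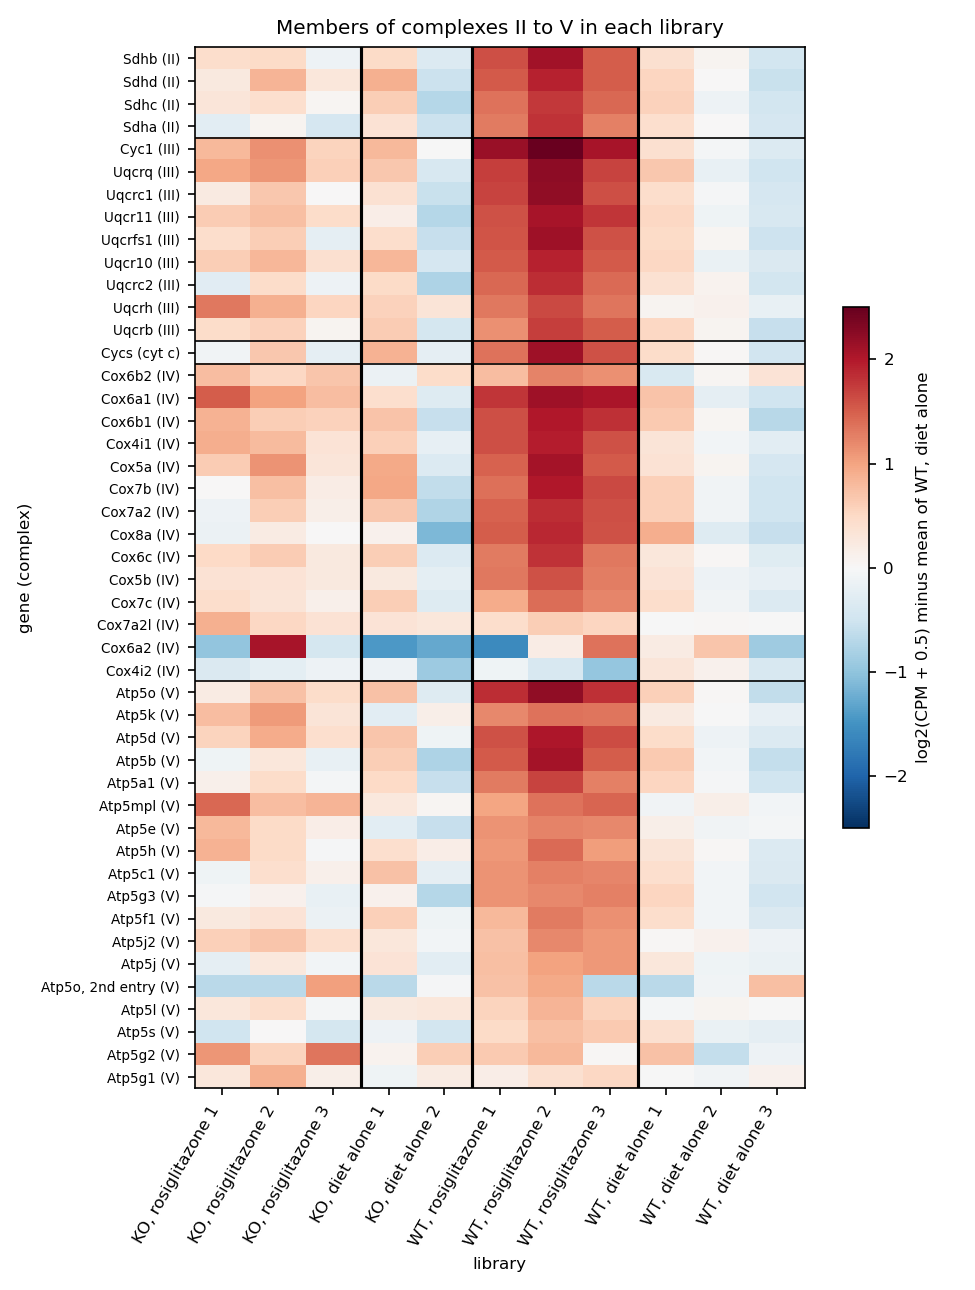
Level of each tested gene in each of the 11 libraries, as log2(CPM + 0.5) minus the mean of the WT libraries on diet alone, with rows grouped by complex and ordered within it by the change with rosiglitazone in WT. Most rows are darkest red in the 3 WT libraries with rosiglitazone, up to 2.48 for Cyc1, while Cox4i2, Cox6a2, Cox7a2l, Atp5g1 and Atp5g2 do not follow that pattern.

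On the per-length scale (TPM, which divides reads by transcript length) the genes summed to 1554, 2817 and 2788 TPM in KO with rosiglitazone and to 5096 and 2386 TPM in KO on diet alone. WT sums were 8874, 9054 and 6472 TPM with rosiglitazone and 3716, 3458 and 2242 TPM on diet alone. WT with rosiglitazone was highest on this scale too. In KO, TPM put 1 of the 2 libraries on diet alone above all 3 with rosiglitazone, which CPM did by a small margin. The KO means changed order with the scale, at 2386.5 TPM with rosiglitazone and 3741 TPM on diet alone, but 2967 and 2691 CPM. WT on diet alone averaged 3139 TPM and 2597 CPM, above KO with rosiglitazone in TPM and below it in CPM. TPM also lacks the TMM scaling of CPM, and the part of length and of scaling in these changes of order was not tested. The fold changes below come from counts scaled as for CPM. Between the 46 tested genes, mean TPM in WT with rosiglitazone ran from 1371 for Atp5b, the catalytic β subunit of ATP synthase, 565 for Atp5a1, the α subunit, and 415 for Cox8a down to 1.48 for Cox4i2.

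Rosiglitazone in WT raised 22 of the 46 tested genes and lowered none (edgeR's quasi-likelihood test, Benjamini-Hochberg adjusted p under 0.05), where 1.55% of all 26960 tested genes were higher. The called genes were 2 of 4 in complex II, 7 of 9 in complex III, 6 of 14 in complex IV and 7 of 18 in complex V. The median log2 fold change of the 46 genes was 1.48, a 2.79-fold difference, against -0.05 over all genes. At an unadjusted p under 0.05 there were 41 higher genes (9.93% of all genes), and DESeq2 called 40 of 45 higher (4.99% of all). Whichever library was removed, the median log2 fold change of the members stayed between 1.34 and 1.71. The share of all genes called in those fits is not given here. The count of called members depended on single libraries. It was 0 without WT with rosiglitazone replicate 2 or without WT on diet alone replicate 2 or 3. It was 1 without WT with rosiglitazone replicate 1 and 2 without its replicate 3. It was 10, 10 and 11 when KO with rosiglitazone replicate 1, 2 or 3 was left out. It was 37 and 38 without KO on diet alone replicates 1 and 2, and 39 without WT on diet alone replicate 1.

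In KO against WT with rosiglitazone, 24 of the 46 genes were lower and none was higher, where 9.5% of all tested genes were lower. They were 3 of 4 in complex II, 5 of 9 in complex III, cytochrome c, 5 of 14 in complex IV and 10 of 18 in complex V. The median log2 fold change was -1.04, against 0.05 over all genes. At an unadjusted p under 0.05 there were 37 lower genes (17.7% of all), and DESeq2 called 32 lower (13.2% of all). This comparison uses the same 3 WT libraries as rosiglitazone in WT. Removing any single KO or WT library with rosiglitazone kept the median of the members between -1.12 and -0.93. The share of all genes called in those fits is not given here. The count was 5, 13 and 2 when replicate 1, 2 or 3 of KO with rosiglitazone was left out, and 13, 3 and 8 when that of WT with rosiglitazone was, while Sdha and Cox5b were called whichever library was left out.

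**Figure D2:**
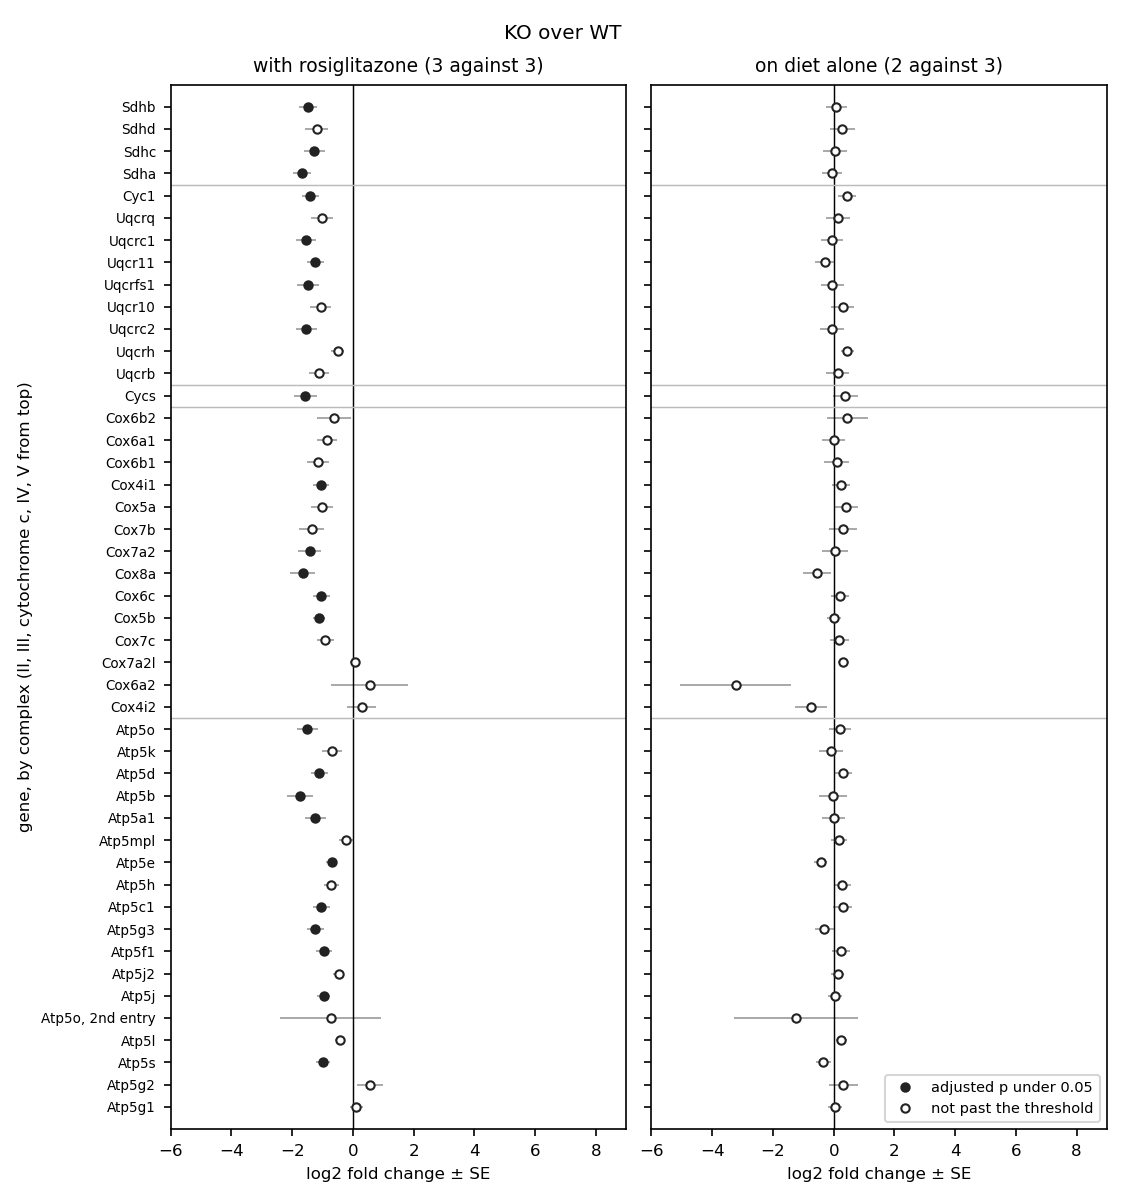
Log2 fold change of KO over WT for each tested gene, with rosiglitazone (left) and on diet alone (right). Points are estimates from edgeR, bars are standard errors, filled points passed an adjusted p of 0.05; 24 genes lie to the left of 0 with filled points on the left side and none is filled on the right.

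On diet alone no member passed the test in KO against WT with edgeR, where 0.137% of all genes were called, and 0 passed at an unadjusted p under 0.05 (10.5% of all genes) or with DESeq2 (2.92% of all genes). The median log2 fold change was 0.11, with the highest values for Uqcrh at 0.45 ± 0.23 and Cox6b2 at 0.45 ± 0.67 and the lowest for Cox6a2 at -3.23 ± 1.83 and the second Atp5o gene at -1.24 ± 2.05 (SE). That median was below 0 without either of 2 libraries, at -0.41 without KO on diet alone replicate 1 and -0.04 without WT on diet alone replicate 3. It was 0.42 without KO on diet alone replicate 2, 0.33 without WT on diet alone replicate 1 and 0.05 without WT on diet alone replicate 2.

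Rosiglitazone in KO moved no member past the threshold with edgeR, where 0.0148% of all genes were called in either direction. At an unadjusted p under 0.05, 6 members were higher (4.09% of all genes), and DESeq2 called only Atp5e (1.32% of all genes were called). The 6 were Atp5e, Atp5j2, Atp5k, Atp5mpl, Cox6a1 and Uqcr11, all of which were also called higher with rosiglitazone in WT. The median log2 fold change was 0.30, and it was 0.82 and -0.10 without KO on diet alone replicates 1 and 2. The extremes were Cox6a2 at 4.12 ± 1.86 and the second Atp5o gene at 1.35 ± 2.07, and at the other end Cycs at -0.26 ± 0.41 and Sdha at -0.18 ± 0.34 (SE).

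**Figure D3:**
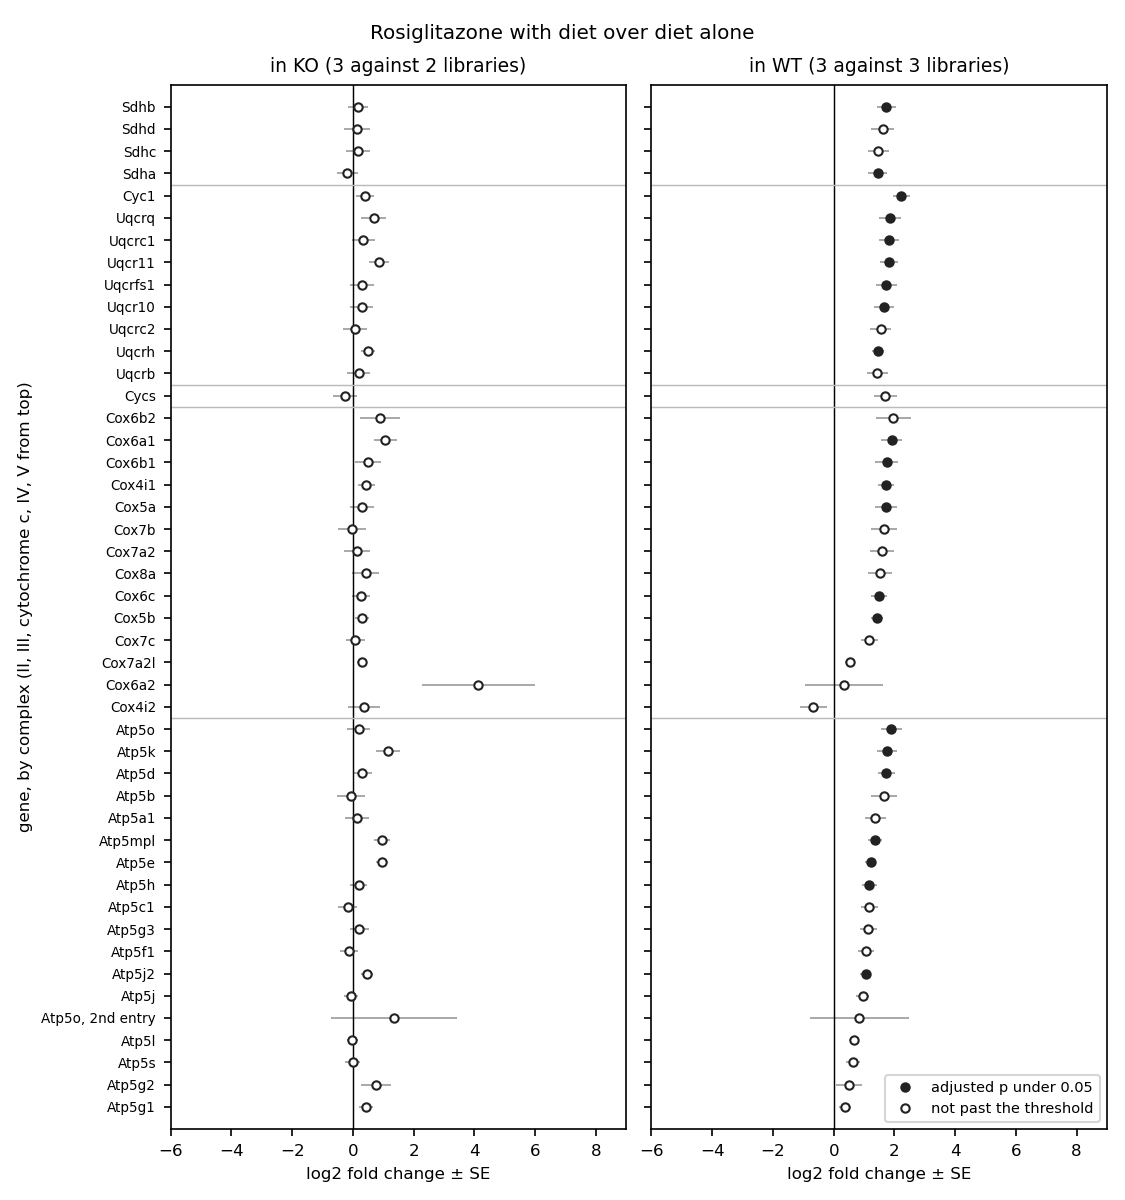
Log2 fold change of rosiglitazone with diet over diet alone for each tested gene, in KO (left) and in WT (right). Points are estimates from edgeR, bars are standard errors, filled points passed an adjusted p of 0.05; 22 points are filled in WT and 0 in KO, and the difference between both sides passed the threshold for no gene.

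The difference between the genotypes in their response to rosiglitazone was tested as the interaction. With edgeR 0 of 46 genes passed (0.104% of all genes did), so the response was not shown to differ for any single gene. At an unadjusted p under 0.05, 31 genes had a smaller response in KO (5.64% of all genes), and DESeq2 called Cyc1 and Sdha (0.834% of all genes). The median interaction was -1.18 on the log2 scale, with the lowest values for Cycs at -1.95 ± 0.55 and Cyc1 at -1.83 ± 0.40 and the highest for Cox6a2 at 3.79 ± 2.22 and Cox4i2 at 1.03 ± 0.70 (SE). It was -0.61 without KO on diet alone replicate 1 and -1.61 without replicate 2, when 1 gene, Cyc1, passed.

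In complex II, Sdha, the flavoprotein that oxidises succinate, was at 159, 200.3 and 144 CPM in KO with rosiglitazone and 247 and 133 CPM in KO on diet alone. WT libraries held 474, 670.2 and 461 CPM with rosiglitazone and 255, 192 and 143 CPM on diet alone. All 3 WT libraries with rosiglitazone stood above the others, and KO with rosiglitazone overlapped both groups on diet alone. Its log2 fold change was -1.68 ± 0.31 (SE, adjusted p = 0.00805 with edgeR) in KO against WT with rosiglitazone and 1.44 ± 0.31 (SE, adjusted p = 0.0453 with edgeR) for rosiglitazone in WT. Sdhb, the iron-sulfur subunit, was at 96.2, 99.7 and 64.8 CPM in KO with rosiglitazone and 99.7 and 55.7 CPM in KO on diet alone, against 219, 306 and 203 CPM in WT with rosiglitazone and 93.4, 74.4 and 51.5 CPM in WT on diet alone. Its log2 fold change in KO against WT with rosiglitazone was -1.48 ± 0.31 (SE, adjusted p = 0.0128 with edgeR), and with rosiglitazone in WT it was 1.73 ± 0.31 (SE, adjusted p = 0.0287 with edgeR). Of the membrane anchors, Sdhc was lower in KO with rosiglitazone at -1.27 ± 0.35 (SE, adjusted p = 0.0383 with edgeR), and Sdhd had -1.19 ± 0.38 (SE, adjusted p = 0.0616 with edgeR), which missed the threshold.

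Complex III held the gene with the largest change in WT. Cyc1, cytochrome c1, was at 60.5, 76.4 and 50.8 CPM in KO with rosiglitazone and 60.9 and 34.1 CPM in KO on diet alone. Levels in WT were 155, 194 and 145 CPM with rosiglitazone and 45.5, 33.1 and 27.1 CPM on diet alone. The WT libraries with rosiglitazone did not overlap any other, and its log2 fold change with rosiglitazone in WT was 2.23 ± 0.28 (SE, adjusted p = 0.0113 with edgeR). In KO against WT with rosiglitazone it was -1.40 ± 0.27 (SE, adjusted p = 0.0103 with edgeR). Uqcrc1, a core subunit whose promoter window held 3 NRF1 matches, was at 166, 226 and 141 CPM in KO with rosiglitazone and 184 and 95.4 CPM in KO on diet alone. In WT it was at 460.2, 656 and 434 CPM with rosiglitazone and 192, 139 and 106 CPM on diet alone. Its log2 fold change was -1.54 ± 0.33 (SE, adjusted p = 0.0144 with edgeR) in KO against WT with rosiglitazone and 1.83 ± 0.33 (SE, adjusted p = 0.0296 with edgeR) for rosiglitazone in WT. Uqcrfs1, the Rieske iron-sulfur protein, was at 84.5, 94.95 and 53.3 CPM in KO with rosiglitazone and 83.9 and 41.6 CPM in KO on diet alone, against 185, 273 and 188 CPM in WT with rosiglitazone and 86.9, 63.9 and 43.2 CPM in WT on diet alone. It and Uqcr11, a small subunit, were also called in both comparisons, with -1.47 ± 0.35 and -1.23 ± 0.29 in KO against WT with rosiglitazone and 1.74 ± 0.35 and 1.82 ± 0.30 with rosiglitazone in WT (log2 fold change ± SE). Uqcrc2, the other core subunit, passed in the genotype comparison, at -1.53 ± 0.35, and had 1.55 ± 0.35 with rosiglitazone in WT. The hinge protein Uqcrh and the small subunits Uqcr10 and Uqcrq rose with rosiglitazone in WT, by 1.46 ± 0.21, 1.66 ± 0.34 and 1.84 ± 0.37 on the log2 scale. Uqcrb passed neither test, with 1.44 ± 0.34 for rosiglitazone in WT and -1.11 ± 0.34 for KO against WT with rosiglitazone.

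Cytochrome c, encoded by Cycs, carries electrons between complexes III and IV and has a second known role in apoptosis. It was at 21.8, 37.05 and 19.8 CPM in KO with rosiglitazone and 42.9 and 19.7 CPM in KO on diet alone. WT held 60.2, 101 and 70.6 CPM with rosiglitazone and 31.8, 23.4 and 16.5 CPM on diet alone. The log2 fold change was -1.56 ± 0.37 (SE, adjusted p = 0.0225 with edgeR) in KO against WT with rosiglitazone, and 1.69 ± 0.38 (SE, adjusted p = 0.0507 with edgeR) with rosiglitazone in WT.

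In complex IV, Cox5b, a zinc-binding subunit, was at 16.5, 16.3 and 15.1 CPM in KO with rosiglitazone and 15.2 and 10.7 CPM in KO on diet alone. WT libraries were at 32.5, 39.5 and 31.8 CPM with rosiglitazone and 16.3, 11.5 and 10.95 CPM on diet alone. It had the lowest adjusted p of the 46 genes in the genotype comparison, with a log2 fold change of -1.12 ± 0.20 (SE, adjusted p = 0.00701 with edgeR) in KO against WT with rosiglitazone and 1.42 ± 0.20 (SE, adjusted p = 0.0159 with edgeR) with rosiglitazone in WT. Cox4i1, the widely used isoform of subunit IV, was at 132, 123 and 89.2 CPM in KO with rosiglitazone and 107 and 60.9 CPM in KO on diet alone, against 216, 277 and 213 CPM in WT with rosiglitazone and 88.4, 67.1 and 58.7 CPM in WT on diet alone. Its log2 fold change was -1.04 ± 0.26 (SE, adjusted p = 0.0265 with edgeR) in KO against WT with rosiglitazone and 1.72 ± 0.27 (SE, adjusted p = 0.0199 with edgeR) with rosiglitazone in WT. Its hypoxia-linked isoform Cox4i2 stayed between 0.444 and 1.78 CPM in all 11 libraries, and it was the only tested member with a value below 0 for rosiglitazone in WT, at -0.67 ± 0.45 (SE, adjusted p = 0.488 with edgeR). Cox8a, a small subunit that stood among the members with the most TPM, was at 49.4, 62.9 and 54.8 CPM in KO with rosiglitazone and 58.6 and 24.8 CPM in KO on diet alone, against 157, 202 and 165 CPM in WT with rosiglitazone and 102, 43.5 and 36.3 CPM in WT on diet alone. Cox8a and Cox7a2 were lower in KO with rosiglitazone, at -1.65 ± 0.41 (SE, adjusted p = 0.0261 with edgeR) and -1.42 ± 0.39 (SE, adjusted p = 0.0362 with edgeR). Cox5a, Cox6a1 and Cox6b1 rose with rosiglitazone in WT, by 1.71 ± 0.36, 1.92 ± 0.34 and 1.74 ± 0.38, and Cox6c was called in both comparisons, at -1.03 ± 0.27 in KO against WT and 1.49 ± 0.27 in WT with rosiglitazone (log2 fold change ± SE).

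Cox7a2l, a relative of Cox7a2, passed neither test. It encodes a protein that helps complexes III and IV associate, and mice of this strain are known to carry a shortened form of it. Its level was 102, 79.1 and 70.8 CPM in KO with rosiglitazone and 70.1 and 66.9 CPM in KO on diet alone. In WT it was at 74.8, 84.9 and 79.7 CPM with rosiglitazone and 54.5, 55.9 and 54.2 CPM on diet alone. KO and WT libraries with rosiglitazone overlapped, and its log2 fold change was 0.07 ± 0.15 (SE, adjusted p = 0.779 with edgeR) in KO against WT with rosiglitazone and 0.54 ± 0.16 (SE, adjusted p = 0.111 with edgeR) in WT. Per length, Cox7a2l made up 63.4, 44.0 and 49.3% of the Cox7a2 and Cox7a2l TPM in KO with rosiglitazone and 39.0 and 62.7% in KO on diet alone. In WT the shares were 28.8, 25.6 and 28.1% with rosiglitazone and 35.5, 47.6 and 53.4% on diet alone. The muscle isoform Cox6a2 had 0.312, 6.25 and 0.685 CPM in KO with rosiglitazone, 0.0985 and 0.160 CPM in KO on diet alone, 0.0355, 1.34 and 3.61 CPM in WT with rosiglitazone, and 1.34, 2.11 and 0.365 CPM in WT on diet alone. Its 3 highest libraries were the 3 richest in skeletal muscle markers, given further on.

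In complex V, the catalytic subunit Atp5b was at 525, 689 and 496 CPM in KO with rosiglitazone and 863 and 332 CPM in KO on diet alone. WT libraries held 1638, 2401 and 1628 CPM with rosiglitazone and 895, 542 and 374 CPM on diet alone. It had the lowest estimate of the 46 genes in KO against WT with rosiglitazone, at -1.73 ± 0.43 (SE, adjusted p = 0.0251 with edgeR), and 1.65 ± 0.43 with rosiglitazone in WT, which missed the threshold. Atp5a1 was at 405, 511 and 357 CPM in KO with rosiglitazone and 524 and 249 CPM in KO on diet alone, against 913, 1205 and 894 CPM in WT with rosiglitazone and 540.3, 363 and 261 CPM in WT on diet alone. Atp5a1 and Atp5c1, the α and γ subunits, were also lower in KO with rosiglitazone, at -1.24 ± 0.35 (SE, adjusted p = 0.0408 with edgeR) and -1.05 ± 0.28 (SE, adjusted p = 0.0323 with edgeR). The other subunits of the catalytic part, Atp5d (δ) and Atp5e (ε), and Atp5o, the oligomycin-sensitivity protein of the peripheral stalk, were called in both comparisons. Atp5e was at 20.1, 15.9 and 12.8 CPM in KO with rosiglitazone and 9.31 and 7.43 CPM in KO on diet alone, against 25.3, 27.1 and 26.4 CPM in WT with rosiglitazone and 12.4, 10.6 and 10.8 CPM in WT on diet alone, so that both groups with rosiglitazone lay above their diet groups. Atp5o was at 45.6, 66.4 and 54.9 CPM in KO with rosiglitazone and 65.9 and 31.5 CPM in KO on diet alone, against 144, 186 and 142 CPM in WT with rosiglitazone and 60.3, 40.3 and 25.8 CPM in WT on diet alone. Its log2 fold change was -1.50 ± 0.34 (SE, adjusted p = 0.0192 with edgeR) in KO against WT with rosiglitazone and 1.90 ± 0.35 (SE, adjusted p = 0.0303 with edgeR) with rosiglitazone in WT, while Atp5e had 1.22 ± 0.18 (SE, adjusted p = 0.0186 with edgeR) in WT and 0.96 ± 0.21 with rosiglitazone in KO. Of the remaining peripheral stalk genes, Atp5f1 and Atp5j were lower in KO with rosiglitazone, at -0.94 ± 0.27 and -0.96 ± 0.21 on the log2 scale, and Atp5h rose with rosiglitazone in WT by 1.17 ± 0.25. The small membrane subunits Atp5j2, Atp5k and Atp5mpl rose with rosiglitazone in WT, by 1.06 ± 0.18, 1.75 ± 0.34 and 1.37 ± 0.23. With rosiglitazone in KO they had 0.46 ± 0.20, 1.15 ± 0.39 and 0.96 ± 0.26, which did not pass the adjusted threshold. Atp5l, at 0.67 ± 0.16 in WT, passed neither test. Atp5s was lower in KO with rosiglitazone at -0.98 ± 0.23 (SE, adjusted p = 0.0212 with edgeR), and the second Atp5o gene had at most 1.12 CPM in any library.

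The ring of c subunits that turns in the membrane is encoded by 3 genes, Atp5g1, Atp5g2 and Atp5g3, which are known to give the same mature peptide with different targeting sequences. Atp5g3 was at 45.7, 81.5 and 88.5 TPM in KO with rosiglitazone and 153 and 76.2 TPM in KO on diet alone. WT held 290.3, 235 and 227 TPM with rosiglitazone and 158, 135 and 85.2 TPM on diet alone. By counts, Atp5g3 was lower in KO against WT with rosiglitazone at -1.23 ± 0.28 (SE, adjusted p = 0.0176 with edgeR). Its means in KO and WT with rosiglitazone were 63.94 and 150.3 CPM. In TPM they were 71.95 and 250.76, a wider gap in the same direction. Atp5g1 was at 7.94, 23.3 and 14.7 TPM in KO with rosiglitazone and 18.2 and 15.9 TPM in KO on diet alone, against 22.3, 21.5 and 23.6 TPM in WT with rosiglitazone and 16.6, 18.1 and 15.7 TPM in WT on diet alone. KO and WT with rosiglitazone overlapped, and WT with rosiglitazone lay above WT on diet alone. Its log2 fold change by counts was 0.12 ± 0.21 in KO against WT with rosiglitazone and 0.37 ± 0.21 with rosiglitazone in WT (SE, adjusted p = 0.740 and 0.400 with edgeR). The means of Atp5g1 in KO and WT with rosiglitazone were 21.05 and 19.42 CPM. In TPM they were 15.3 and 22.46, so the order of the genotypes changed with the scale. Atp5g2 was near the low end of the members, at 3.59, 4.15 and 9.25 TPM in KO with rosiglitazone and 5.01 and 7.09 TPM in KO on diet alone, against 6.97, 6.01 and 2.89 TPM in WT with rosiglitazone and 6.22, 2.61 and 3.81 TPM in WT on diet alone. The share of Atp5g1 in the TPM of the 3 genes was 13.9, 21.4 and 13.1% in KO with rosiglitazone and 10.3 and 16.0% in KO on diet alone. It was 6.99, 8.17 and 9.31% in WT with rosiglitazone and 9.15, 11.7 and 15.01% in WT on diet alone. Salmon's model splits reads that fit several paralogs, so these shares are less certain than the sums.

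**Figure D4:**
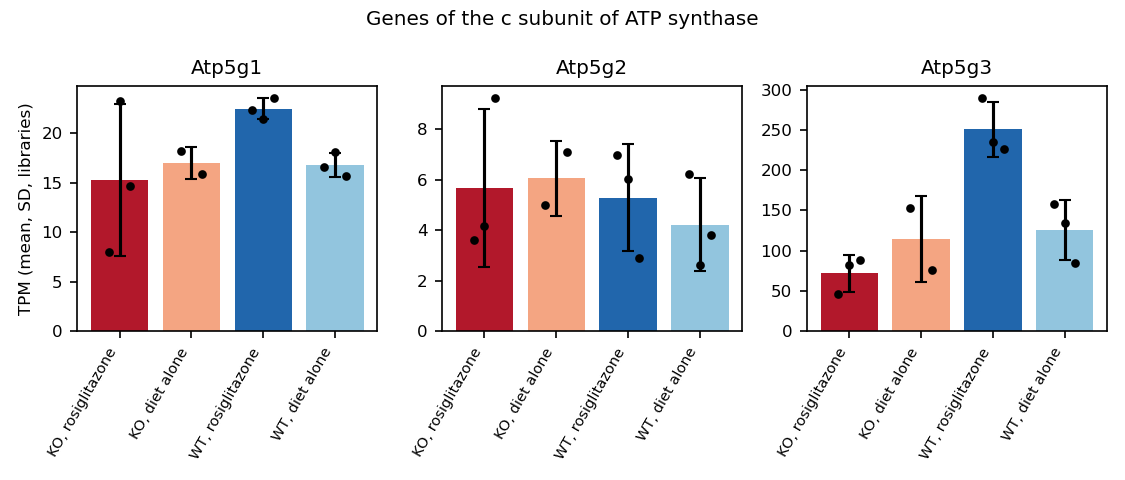
TPM of the 3 c-subunit genes in each group. Bars are means, error bars SD, points libraries (3, 2, 3 and 3 libraries from left); each panel has its own axis, and Atp5g3 averages 250.8 TPM in WT with rosiglitazone, while Atp5g1 averages 22.5 TPM and Atp5g2 5.29 TPM there.

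Other genes of oxidative phosphorylation were compared by counts. Of 36 nuclear genes of complex I, 24 were higher with rosiglitazone in WT (1.55% of all genes were), with a median of 1.43. In KO against WT with rosiglitazone 22 were lower (9.5% of all genes were), with a median of -1.03. Of 6 mitochondrially encoded subunits of complexes III to V, mt-Co2 was higher with rosiglitazone in WT (1.81 ± 0.34) and mt-Cytb was lower in KO against WT with rosiglitazone (-1.84 ± 0.53, log2 fold change ± SE). All 6 lay above 0 in the first comparison and below 0 in the second, with medians of 1.44 and -1.47. At an unadjusted p under 0.05 there were 5 higher (9.93% of all genes) and 5 lower (17.7% of all genes). The isoform gene Cox8b, known from brown fat and muscle, was higher with rosiglitazone in WT at 2.68 ± 0.57 (adjusted p = 0.0445), and Cox7a1 was at 2.33 ± 0.56 (adjusted p = 0.0643). Ndufa4, a subunit now assigned to complex IV, was lower in KO against WT with rosiglitazone at -1.43 ± 0.38 (adjusted p = 0.0327, all by edgeR).

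Assembly factors and regulators were counted in the same way. Of all genes, 1.55% were higher with rosiglitazone in WT and 9.5% lower in KO against WT with rosiglitazone. For complex IV, 2 of 23 rose with rosiglitazone in WT and 4 of 23 were lower in KO with rosiglitazone, with medians of 0.56 and -0.58. For complex III, Bcs1l, which inserts the Rieske protein, and Uqcc1 were called in both comparisons, at 1.02 ± 0.18 and 1.09 ± 0.19 with rosiglitazone in WT and -1.02 ± 0.18 and -1.27 ± 0.19 in KO against WT with rosiglitazone. For complex II, Sdhaf1 and Sdhaf3 were lower in KO with rosiglitazone, at -0.67 ± 0.17 and -0.95 ± 0.28. For complex V, Atpaf2, a chaperone of the α subunit, was at 1.70 ± 0.28 with rosiglitazone in WT and -2.01 ± 0.28 in KO against WT with rosiglitazone, and Tmem70 was at -1.37 ± 0.24 in KO against WT with rosiglitazone. Atpif1, the inhibitor of ATP synthase, was higher in KO with rosiglitazone at 1.22 ± 0.34 (adjusted p = 0.0376), with 10.4, 4.97 and 6.60 CPM there and 2.91, 2.83 and 3.74 CPM in WT with rosiglitazone. Of 11 regulators of mitochondrial biogenesis, Esrra, an oestrogen-related receptor, rose with rosiglitazone in WT by 1.13 ± 0.15 (adjusted p = 0.0142), and Ppara, Esrrg and Tfb2m were lower in KO against WT with rosiglitazone at -1.79 ± 0.49, -1.15 ± 0.31 and -1.30 ± 0.27. Nrf1, named because of the motif above, had -0.27 ± 0.18 and 0.49 ± 0.18 in those comparisons and passed neither.

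Markers of some cell types also differed between the groups, and others varied widely between libraries of the same group. In bulk tissue fewer cells of a type and less RNA per cell cannot be told apart. The summed level of 22 mature adipocyte markers was 8934.5, 10816 and 10257 CPM in KO with rosiglitazone and 15073 and 4725 CPM in KO on diet alone. Sums in WT were 51825, 59326 and 53864 CPM with rosiglitazone and 55784, 22660 and 18528 CPM on diet alone. All 22 markers were below WT in KO with rosiglitazone and 20 passed (9.5% of all genes were lower), with a median log2 fold change of -2.39. On diet alone 21 of the 22 were below WT, with a median of -1.43, and 1 passed with edgeR (0.137% of all genes did). There 13 were lower at an unadjusted p under 0.05 (10.5% of all genes in either direction). DESeq2 called 8 lower (2.92% of all genes in either direction). Rosiglitazone in WT called 0 of the 22 with edgeR (1.55% of all genes were higher). An unadjusted p under 0.05 was reached by 9 that were higher (9.93% of all genes) and 1 that was lower. DESeq2 called 5 higher (4.99% of all genes) and 1 lower. WT on diet alone replicate 1 had adipocyte markers in the range of WT with rosiglitazone and the members at 3535 CPM. With the summed markers as a covariate, chosen after seeing the data, 36 members rose with rosiglitazone in WT and 0 were lower in KO against WT with rosiglitazone, where the median was 0.09. Every KO library (4725 to 15073 CPM) lay below every WT library (18528 to 59326 CPM) in the summed markers. The fit with this covariate therefore cannot separate genotype from the markers. The share of all genes called in it is not given here. The part of adipocyte content in the genotype difference was not tested.

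**Figure D5:**
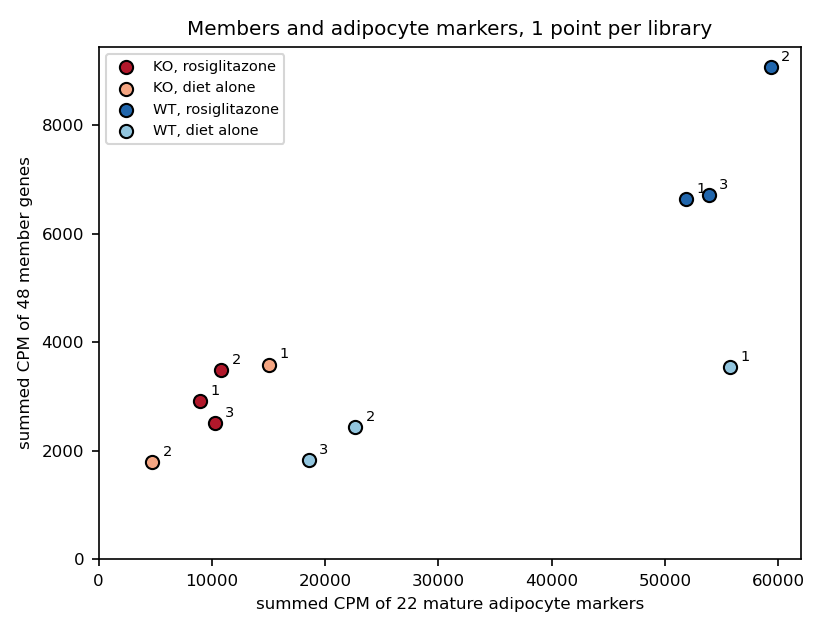
Summed CPM of the 48 members against the summed CPM of 22 mature adipocyte markers, 1 point per library, numbered by replicate. The 3 WT libraries with rosiglitazone lie at 6643 to 9082 CPM of members, and WT on diet alone replicate 1, with 55784 CPM of markers, lies at 3535 CPM.

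Skeletal muscle markers took 0.00496, 1.95 and 0.00966% of reads in KO with rosiglitazone, 0.0170 and 0.00419% in KO on diet alone, 0.0142, 0.352 and 0.747% in WT with rosiglitazone, and 0.0343, 0.809 and 0.0455% in WT on diet alone. Without the 3 libraries above 0.5%, an alternative chosen after seeing the data, 0 members passed in either comparison. The medians there were 1.51 for rosiglitazone in WT and -1.14 for KO against WT with rosiglitazone. That fit lacks 1 library each of KO with rosiglitazone, WT with rosiglitazone and WT on diet alone. The loss of calls therefore cannot be told apart from having fewer libraries. The share of all genes called in that fit is not given here. B-cell markers summed to 916, 1009 and 1132 CPM in KO with rosiglitazone and 85.4 and 1433 CPM in KO on diet alone. WT held 489, 45.7 and 267 CPM with rosiglitazone and 77.8, 1309 and 1194 CPM on diet alone. In both groups on diet alone, replicate 1 had the lowest B-cell sum and the highest sum of members (3589 CPM in KO and 3535 CPM in WT). Of 22 macrophage markers, 16 were higher in KO against WT with rosiglitazone, with a median log2 fold change of 1.99 against 0.05 over all genes. In that comparison 20 lay above 0 and 2 below, the lowest at -2.08. Their summed level went the other way. It was 6308, 5982 and 7061 CPM in KO with rosiglitazone and 7746, 8940 and 8765 CPM in WT with rosiglitazone. The list includes Lpl, which is also among the adipocyte markers. The share of all genes that were higher is not given here. Of 14 endothelial markers 6 were lower in that comparison (9.5% of all genes were), with a median of -0.78. Of 15 B-cell markers 1 was higher there, and of 19 T and NK cell markers 0 passed with edgeR (1 higher at an unadjusted p under 0.05 and 2 with DESeq2). Of 15 brown and beige adipocyte markers 2 were lower in KO against WT with rosiglitazone (9.5% of all genes were), with a median of -0.65. Rosiglitazone in WT put all 15 brown and beige markers above 0, with a median log2 fold change of 2.33. Of them 2 passed with edgeR (1.55% of all genes were higher) and 8 with DESeq2 (4.99%). In KO against WT on diet alone 14 of the 15 were above 0, with a median of 2.02, and 0 passed with edgeR (0.137% of all genes did). Without adjustment 8 were higher and 1 lower (10.5% of all genes in either direction). With DESeq2 3 were higher and 1 lower (2.92% of all genes in either direction). Of the 22 macrophage markers 5 were lower with rosiglitazone in WT, with a median of -0.65 against -0.05 over all genes. The share of all genes that were lower is not given here either. The B-cell and T and NK cell markers all lay below 0 there, with medians of -1.61 and -1.31, and 0 passed with edgeR (1 B-cell marker was lower without adjustment and 1 with DESeq2, and 0 T and NK cell markers either way). The part of muscle, lymphoid, macrophage, endothelial and brown or beige fat cells in the members' differences was not tested.

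For 5 members less than 50% of the reads were assigned to transcripts annotated as coding: Uqcrh (25.0%), Cox7a2 (27.3%), Atp5j (34.1%), Atp5l (41.3%) and Atp5f1 (48.9%). Their gene values therefore count mostly other transcripts of the same gene. The 15 tested members with the NRF1 letters in their window had a median log2 fold change of 1.66 with rosiglitazone in WT and the 19 without them 1.46. In KO against WT with rosiglitazone the medians were -1.11 with the letters and -0.98 without.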

How the data were processed

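Libraries were prepared by Nextera XT from Trizol-extracted RNA, per the labels' protocols, which do not name a strand. The authors used Salmon and edgeR with the builds mm10 and GRCm38, per the submitters' processing notes; their versions and the annotation release: not given in the sources used here. Per the file headers, the deposited tables hold, for each transcript of 1 library, Salmon's estimated count and its TPM. TPM is a level per length, so that values of 1 library add to a fixed sum.

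Of 132288 transcripts, 131892 (99.7%) were matched to GENCODE M21 (GRCm38) without the version. Each gene's estimated counts were added up and rounded, and CPM is the count scaled after TMM normalisation. Groups come from the genotype and treatment entries. edgeR 4.0.16 (R 4.3.3) fitted 1 quasi-likelihood model with robust dispersion to the 11 libraries together, each group having its own mean, after its default filter by group, which kept 26960 genes. The Benjamini-Hochberg adjustment covers all of these genes, and the threshold is 0.05. DESeq2 1.42.0 was the other test. The fit was tested on simulated counts. Replicates differed by more than sampling noise (chi-square 26.9 to 141 for each degree of freedom) and were counted singly.

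The members, lists and tests were chosen with earlier results of these data known. Genes named are a fixed list by role, the 2 highest and 2 lowest in each contrast, and list genes where 3 or fewer were called or that are isoforms of a member; Nrf1 and the remaining members were named after their values were seen. Alternatives were other scalings, DESeq2, other filters, protein-coding genes only, only the compared groups, a replicate block, a muscle covariate, WT grouped by titles and each library left out. A mature adipocyte covariate and a fit without the 3 muscle-rich libraries were added after seeing the data.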

Additional observations from a re-analysis of the deposited data

How the results depend on the processing

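The number of members higher with rosiglitazone in WT was 18 with RLE scaling, 24 without a filter, 25 with a filter of 1 CPM in 3 libraries, 16 with only the groups compared, 34 with upper-quartile scaling, 40 with DESeq2, 37 with protein-coding genes only, 8 with a muscle covariate, 0 without the 4 libraries richest in muscle and 0 without the 3 with over 0.5%, and 36 with the mature adipocyte covariate (median 0.98); with each library left out it ran from 0 to 39. The number lower in KO against WT with rosiglitazone was 23 to 33 with the other scalings, filters, tests and only the groups compared, 12 with the muscle covariate, 0 without the 4 or the 3 muscle-rich libraries and 0 with the adipocyte covariate, where the median was reversed at 0.094; with each library left out it ran from 2 to 32. The adipocyte covariate was lower in every KO library than in every WT library, so its fit cannot separate genotype from the markers. The cause was not tested. Apart from DESeq2, whose shares are given above, the share of all genes called in these settings and those below is not given here. A change in a member count therefore cannot be told apart from a change over all genes. For rosiglitazone in KO, DESeq2 called 1 member and the adipocyte covariate 2, and leaving out each library moved the median from -0.10 to 0.82. For KO against WT on diet alone the adipocyte covariate called 21 higher (median 0.93), and leaving out each library moved the median from -0.41 to 0.42. For the interaction, DESeq2 called 2 lower and the adipocyte covariate 6; leaving out each library gave 0 to 1 lower calls and medians from -1.61 to -0.61.

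With WT grouped by titles, rosiglitazone in WT gave 0 higher and 22 lower (median -1.48), KO against WT on diet alone 24 lower (median -1.42), KO against WT with rosiglitazone 2 higher and 0 lower (median 0.36), and the interaction 10 higher (median 1.73). Upper-quartile scaling shifted the median of all genes to -0.11 and 0.13 for rosiglitazone in WT and KO against WT with rosiglitazone.

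With the replicate block, 20 members were higher with rosiglitazone in WT and 24 lower in KO against WT with rosiglitazone (medians 1.57 and -1.07). The labels do not say that a number marks a shared source. Deviations of same-numbered libraries correlated at -0.12, -0.30 and 0.09 for WT with rosiglitazone and WT on diet alone, at 0.20, 0.16 and -0.10 for KO and WT with rosiglitazone, and at 0.61 and 0.40 for KO and WT on diet alone, and over all pairs of groups from -0.42 to 0.61, so the numbers were not taken to pair the libraries.

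With 2 or 3 libraries in a group, single libraries decide the counts, which limits what can be said of any one gene. Where leaving out libraries left 1 in a group, that library was assumed to vary like the others.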

Other observations

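Set against the adipocyte markers of the same library, the members stood in another order. For every 100 CPM of the 22 mature adipocyte markers there were 32.6, 32.2 and 24.4 CPM of members in KO with rosiglitazone and 23.8 and 38.0 CPM in KO on diet alone. WT libraries had 12.8, 15.3 and 12.5 CPM with rosiglitazone and 6.34, 10.7 and 9.86 CPM on diet alone. Every KO library was above every WT library in this ratio, and every WT library with rosiglitazone was above every WT library on diet alone. The marker sums it divides by were lower in every KO library (4725 to 15073 CPM) than in every WT library (18528 to 59326 CPM). The order of KO and WT in the ratio therefore cannot be told apart from that of the markers. Cells other than adipocytes also transcribe the members, and their part in the ratio was not tested.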
